A study of Mus musculus with 12 samples.

Results

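The genes that switch the pyruvate dehydrogenase complex off and on, and those that encode the complex itself, were examined in primary mouse embryonic fibroblasts kept in low or normal oxygen. The set was chosen by name, with earlier results of these data known. It held 10 genes: the kinases Pdk1, Pdk2, Pdk3 and Pdk4, the phosphatases Pdp1 and Pdp2, and the subunits Pdha1, Pdhb, Dlat and Pdhx. They are 10 of the 18193 genes that the array annotation names with a single symbol. A probe set is the group of array probes that reports 1 transcript, and the 10 genes had 18 of them among 45037 that were not array controls. Of those 18, 16 reached a mean signal of 100 over the 12 arrays and were tested, which left 9 genes with a tested probe set. Pdp2 and the dimmest of the 4 Pdk1 probe sets did not reach it.

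RNA was measured on 12 arrays from 6 fibroblast lines, each derived from e14.5 embryos. In the 3 triCH1 lines the CH1 domain was deleted from 3 of the 4 alleles of the coactivator genes Crebbp (CBP) and Ep300 (p300), and the last allele was a conditional knockout. Line triCH1flox1 kept its conditional allele at Crebbp, whereas triCH1flox2_1 and triCH1flox2_2 kept theirs at Ep300. The 3 control lines carried a single conditional knockout allele, of Crebbp in line flox1 and of Ep300 in lines flox2_1 and flox2_2. All 6 lines, controls included, had received a Cre-expressing adenovirus at passage 3 and were then expanded at least 100-fold, so exposure of a conditional coactivator allele to Cre and long culture were common to all groups. Each line gave 1 array after 6 h at 0.1% oxygen (hypoxia) and 1 after 6 h at 21% oxygen (normoxia), both at 5% carbon dioxide and 37 °C, which makes 4 groups of 3 arrays. The CH1 domain binds the transactivation domain of HIF-1α, and the comparison asks how far the response to hypoxia needs it.

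The pyruvate dehydrogenase complex sits in the mitochondrial matrix and turns pyruvate into acetyl-CoA, the step that joins glycolysis to the citrate cycle. Its kinases phosphorylate the E1α subunit and so switch the complex off, and its phosphatases remove the phosphate and switch it on again. Pdk1 is a well-known target of the hypoxia-inducible factor HIF-1, and in fibroblasts its induction is known to divert pyruvate from mitochondria to lactate.

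Signals are the authors' linear values, scaled on each array to a target of 500. Median signals of the arrays ran from 57.2 to 76.1, and scale factors from 2.57 to 4.28. The cells carried fibroblast transcripts: all 8 markers of that type reached the mean of 100, and their summed signal lay at 117016 to 154149 in triCH1 hypoxia, 133113 to 143244 in triCH1 normoxia, 133816 to 170954 in control hypoxia and 127354 to 163484 in control normoxia. Single markers moved apart: Thy1 ran from 2307 to 4001 on triCH1 and from 4624 to 7558 on control arrays. Pdgfra ran from 75.2 to 775 on triCH1 and from 14.7 to 217 on control arrays. For triCH1 against control in hypoxia, 3 of these 8 had a limma unadjusted p under 0.05 and 0 were called. None of 4 endothelial markers reached 100, against 1 of 5 for skeletal muscle, 2 of 4 for macrophages and 2 of 4 for neural cells, where Nes averaged 1066. Among 5 epithelial markers the summed signal moved with oxygen, at 3683 to 3867 in triCH1 hypoxia against 1335 to 2468 in triCH1 normoxia, and at 5913 to 7596 in control hypoxia against 1324 to 2289 in control normoxia. Of these 5 markers 3 reached 100: Krt19, a keratin that carried the sum with a mean of 3118, Krt18 at 214 and Epcam at 142. Krt8 averaged 71.3 and the defining marker Cdh1 39.5 over the 12 arrays. The part of this list in the results below was not tested. In such bulk RNA, fewer cells of a type and less RNA per cell cannot be told apart.

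Pdk1 was the member whose transcript rose in hypoxia, and it rose in every line and in both line types, about 10-fold in triCH1 lines and 13-fold in control lines by group means. The mean log2 responses of the other tested members lay between -0.27 and 0.34, and none of these members passed the test. Single lines ran wider, from -2.32 to 0.53 for Pdk2 and from -0.83 to 1.16 for Pdk4. Pdk3, a kinase gene on the X chromosome, had a higher signal in hypoxia in 6 of 6 lines, by 0.34 ± 0.10 on the log2 scale (SE), which did not pass the test over all probe sets. No member differed by the test between triCH1 and control lines, in either oxygen level or in its response.

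Pdk1 encodes a kinase isoform abundant in heart and lies on chromosome 2 at 71873215 to 71903858 (GRCm38.p6). In hypoxia its brightest probe set gave signals of 2739, 2296 and 3200 in lines triCH1flox1, triCH1flox2_1 and triCH1flox2_2, against 215, 232 and 372 in the same lines in normoxia. In the control lines it gave 2123, 3226 and 3791 in hypoxia for flox1, flox2_1 and flox2_2, against 170, 299.8 and 222 in normoxia. Every hypoxia array lay above every normoxia array. The means were 2745 ± 452 in triCH1 hypoxia and 273 ± 86.0 in triCH1 normoxia, and 3047 ± 848 in control hypoxia and 231 ± 65.3 in control normoxia (SD, n = 3 each).

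**Figure D1:**
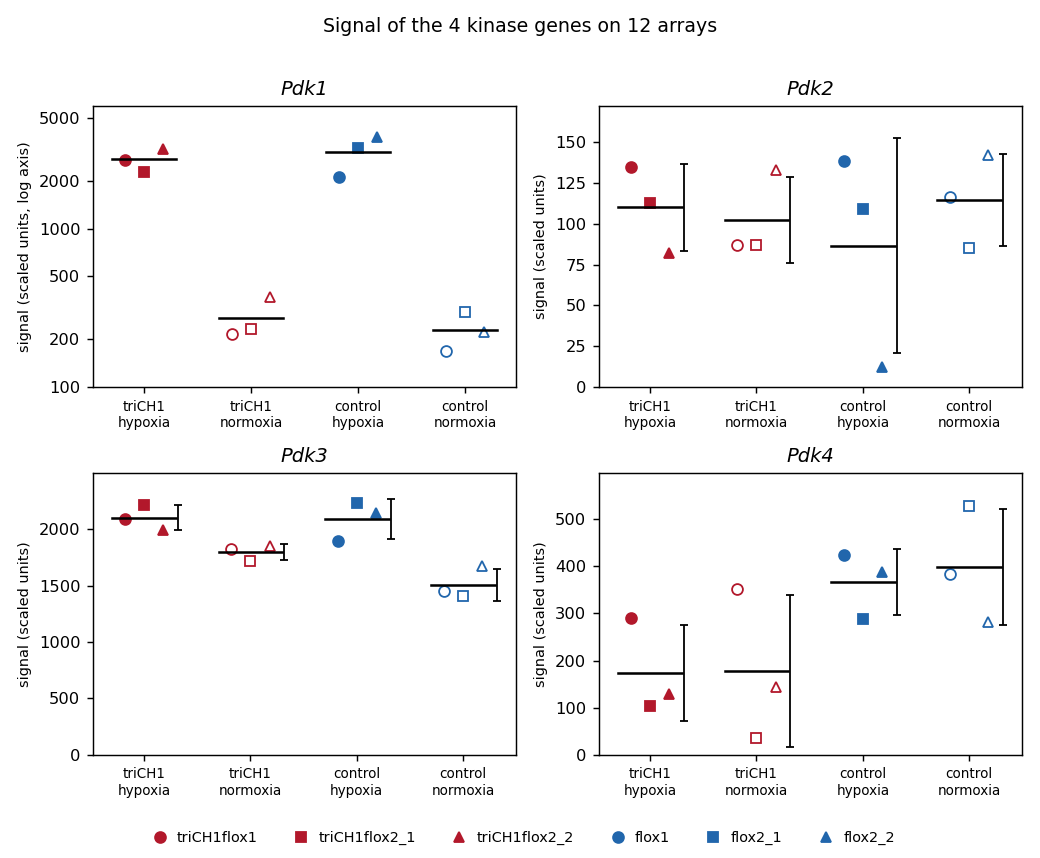
Signal (scaled units) of the brightest probe set of each kinase gene on the 12 arrays, with a logarithmic axis for Pdk1 and linear axes from 0 for the others. Each point is 1 array, red for triCH1 and blue for control lines, filled in hypoxia and open in normoxia, with the group mean as a line and the SD as a bar (not drawn for Pdk1). Pdk1 lies between 2123 and 3791 on the 6 hypoxia arrays and between 170 and 372 on the 6 normoxia arrays, while the groups overlap for Pdk2, and Pdk4 is lowest in lines triCH1flox2_1 and triCH1flox2_2.

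On the scale of log2(signal + 20), the Pdk1 response was 3.26 ± 0.27 in triCH1 lines (SE, limma adjusted p = 1.58e-05) and 3.61 ± 0.27 in control lines (limma adjusted p = 3.76e-06). The mean response over the 6 lines was 3.43 ± 0.19 (limma adjusted p = 7.738e-08). By line it was 3.55 in triCH1flox1, 3.20 in triCH1flox2_1 and 3.04 in triCH1flox2_2, against 3.49 in flox1, 3.34 in flox2_1 and 3.98 in flox2_2. The line with the largest response was thus a control line and the line with the smallest a triCH1 line, with the other 4 interleaved. As ratios of the 2 arrays of a line these were 12.7, 9.90 and 8.61 in the triCH1 lines against 12.5, 10.8 and 17.1 in the control lines.

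The difference in the Pdk1 response, triCH1 minus control, was -0.34 ± 0.38 (SE, 95% interval -1.15 to 0.47, limma adjusted p = 1). This interval, from the fit without pairing, allows a response in triCH1 lines smaller by up to 1.15 log2 units or larger by up to 0.47. With the 2 arrays of a line paired as a replicate block, the 95% interval was -0.88 to 0.19. By either interval the 6 lines do not settle whether the deletions left the response the same. An exact permutation test of the 6 line responses between line types gave a two-sided p = 0.3, where 3 lines against 3 cannot go below 0.1. At normoxia the Pdk1 level in triCH1 lines differed from that in control lines by 0.22 ± 0.27, and at hypoxia by -0.12 ± 0.27 (SE, limma adjusted p = 0.969 and 0.929). In both oxygen levels the signals of the line types overlapped.

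2 further Pdk1 probe sets were tested and called as well. The second had a log2 response of 3.16 ± 0.24 in triCH1 lines and 3.44 ± 0.24 in control lines (SE, limma adjusted p = 1.253e-05 and 1.986e-06). The third gave 2.55 ± 0.24 and 2.70 ± 0.24 in the same order (SE, limma adjusted p = 7.912e-05 and 2.289e-05). The 4th averaged a signal of 24.3 and was not tested; it was higher in hypoxia in 5 of 6 lines. The direction was therefore shared by the 3 probe sets that could be tested, with a smaller log2 change in the dimmest of them.

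The share of all 18903 tested probe sets that were called higher in hypoxia was 0.63% in triCH1 lines, 0.799% in control lines and 1.42% for the mean response. Called lower were 0.00529%, 0.0317% and 0.328% of them. Among the 9 tested members, 1 was called higher and 0 lower in each of these comparisons. With the 2 arrays of a line paired as a replicate block, the shares called higher were 0.936%, 1.21% and 2.41% and those called lower 0.0635%, 0.185% and 1.26%, and the members' counts stayed at 1 and 0. The median log2 response of the 9 members was 0.09 in triCH1 lines, -0.02 in control lines and 0.08 for the mean response, where the medians over all 18903 probe sets were -0.02, -0.04 and -0.03. Without Pdk1, the mean responses of the other 8 tested members lay between -0.27 and 0.34.

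The promoter windows of the 4 kinase genes are shown with their matches to 2 forms of a short motif. The windows are RefSeq's, on GRCm38.p6, from 250 bases before to 50 after a gene's start, read 5′ to 3′ on the gene's strand. Capitals mark ACGTG and GCGTG, the forms of the HIF core motif, on either strand, so that CACGT and CACGC are the same motif on the opposite strand. The windows lie at chr2:71872974-71873273 for Pdk1 (plus strand), chr11:95041322-95041621 for Pdk2 (minus strand), chrX:93832101-93832400 for Pdk3 (minus strand) and chr6:5496229-5496528 for Pdk4 (minus strand).
Pdk1: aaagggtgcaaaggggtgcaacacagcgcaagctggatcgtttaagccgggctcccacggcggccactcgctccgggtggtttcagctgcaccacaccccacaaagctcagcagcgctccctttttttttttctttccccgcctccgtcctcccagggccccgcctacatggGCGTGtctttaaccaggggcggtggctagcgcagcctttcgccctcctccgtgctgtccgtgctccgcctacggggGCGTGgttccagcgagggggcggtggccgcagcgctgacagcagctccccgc
Pdk2: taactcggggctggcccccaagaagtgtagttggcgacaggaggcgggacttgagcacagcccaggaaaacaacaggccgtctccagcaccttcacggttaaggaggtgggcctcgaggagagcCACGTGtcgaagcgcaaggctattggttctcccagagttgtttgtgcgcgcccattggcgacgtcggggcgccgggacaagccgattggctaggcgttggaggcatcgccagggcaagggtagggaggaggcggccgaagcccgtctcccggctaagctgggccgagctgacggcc
Pdk3: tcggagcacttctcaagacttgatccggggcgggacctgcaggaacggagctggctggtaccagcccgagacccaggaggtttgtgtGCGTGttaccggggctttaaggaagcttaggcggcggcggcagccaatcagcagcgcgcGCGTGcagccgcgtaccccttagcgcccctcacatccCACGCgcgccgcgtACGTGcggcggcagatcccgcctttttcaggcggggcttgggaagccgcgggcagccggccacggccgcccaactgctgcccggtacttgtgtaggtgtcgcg
Pdk4: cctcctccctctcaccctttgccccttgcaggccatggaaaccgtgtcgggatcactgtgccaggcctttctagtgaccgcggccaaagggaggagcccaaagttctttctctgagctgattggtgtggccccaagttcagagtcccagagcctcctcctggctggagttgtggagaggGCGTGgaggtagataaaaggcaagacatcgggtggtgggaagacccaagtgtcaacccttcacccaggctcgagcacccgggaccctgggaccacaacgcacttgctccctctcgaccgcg
Positions are those of the first base of a match. The Pdk1 window held GCGTG from -78 and from -2, both on the gene's strand, and the match from -2 runs across the start. The Pdk2 window held ACGTG at -125, within a palindrome that reads the same on the opposite strand from -126. The Pdk3 window held ACGTG at -53 and GCGTG at -163 and -104, and on the opposite strand at -67. The Pdk4 window held GCGTG at -71.

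RefSeq's table listed 11 starts for 9 of the 10 members, and 8 of those 11 windows held ACGTG or GCGTG, 4 of them ACGTG and 6 GCGTG. Of all 32851 mouse promoter windows in the table, 43.8% held either form, 19.6% ACGTG and 32.4% GCGTG. The second listed starts of Pdk1 and Pdk2 and the Dlat window held neither. Among the printed windows of the 4 kinase genes, those of Pdk1 and Pdk4 held only GCGTG. That of Pdk2 held only ACGTG, and that of Pdk3 held both. A match of 5 letters is a description of the window, not of a bound site, and its part in the responses was not tested.

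Pdk3 encodes the isoform with the highest reported activity among the kinases and lies on the X chromosome at 93764616 to 93832150. In hypoxia its signal was 2094, 2218 and 1994 in triCH1flox1, triCH1flox2_1 and triCH1flox2_2, against 1822, 1718 and 1850 in normoxia. In flox1, flox2_1 and flox2_2 it was 1892, 2230 and 2146 in hypoxia, against 1448, 1408 and 1671 in normoxia. All 6 hypoxia arrays lay above all 6 normoxia arrays, as for Pdk1, but the ratio of group means was 1.17 in triCH1 lines and 1.38 in control lines. How many of all tested probe sets separate in this way was not counted.

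The Pdk3 response was 0.22 ± 0.14 in triCH1 lines and 0.46 ± 0.14 in control lines (SE, limma adjusted p = 0.908 and 0.294). Averaged over the 6 lines it was 0.34 ± 0.10 (SE, 95% interval 0.13 to 0.55, limma adjusted p = 0.126, unadjusted p = 0.003524). With the lines paired as a replicate block the adjusted p was 0.0793. By line the log2 difference ran from 0.11 in triCH1flox2_2 to 0.66 in flox2_1. An exact sign-flip permutation test of the 6 line responses gave a two-sided unadjusted p = 0.03125, the smallest that 6 lines allow, for Pdk3 and for Pdk1 alike. The difference in response, triCH1 minus control, was -0.24 ± 0.20 (SE, 95% interval -0.66 to 0.18, limma adjusted p = 1).

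In normoxia the Pdk3 signals of the 3 triCH1 lines lay above those of the 3 control lines, by 0.25 ± 0.14 on the log2 scale (SE, limma adjusted p = 0.76), and in hypoxia they overlapped. The share of all probe sets without overlap in normoxia was not counted. Because Pdk3 and Pdha1 are X-linked, Xist and Eif2s3y were read in each line. Xist gave 459 to 1733 on the arrays of triCH1flox1, triCH1flox2_2 and flox2_1, against 4.2 to 90.0 on those of the other 3 lines. Eif2s3y, a Y-linked gene, gave 919 to 1821 in those other 3 lines and 1.7 to 33.0 in the first 3. High Xist thus marked 2 of 3 triCH1 lines and 1 of 3 control lines, and its part in the normoxia levels was not tested.

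Pdk4 encodes the isoform known for its induction in fasting muscle and heart through PPAR and FOXO factors, and lies on chromosome 6 at 5483351 to 5496278. Its signals in hypoxia were 291, 102 and 129 in triCH1flox1, triCH1flox2_1 and triCH1flox2_2, against 352, 34.6 and 144 in normoxia. In flox1, flox2_1 and flox2_2 they were 424, 289 and 388 in hypoxia, against 384, 528 and 282 in normoxia. Hypoxia and normoxia arrays overlapped in both line types, and lines triCH1flox2_1 and triCH1flox2_2 lay below all other lines in both oxygen levels.

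The mean Pdk4 response was 0.08 ± 0.38 (SE, 95% interval -0.74 to 0.91, limma adjusted p = 0.969), with 3 lines higher and 3 lower in hypoxia. It was 0.25 ± 0.54 in triCH1 lines and -0.09 ± 0.54 in control lines, the widest error among the members. Without line triCH1flox2_1 the mean response was -0.14, and without flox2_2 it was -0.05. Between line types the Pdk4 level was lower in triCH1 lines by -1.44 ± 0.54 in normoxia and by -1.10 ± 0.54 in hypoxia (SE, limma adjusted p = 0.544 and 0.642), and neither passed the test. Without line triCH1flox1 the normoxia difference was -2.10 ± 0.41 with a limma adjusted p of 0.0289, so that line decides the call. That line is also the triCH1 line whose conditional allele was Crebbp, and with 1 such line the genotype and the line cannot be told apart.

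Adipocyte markers were read beside Pdk4. Pparg, the nuclear receptor of adipocytes, had 75.7, 698 and 247 in triCH1flox1, triCH1flox2_1 and triCH1flox2_2 in hypoxia, and 174, 470 and 143 in the same lines in normoxia. In the control lines Pparg lay between 123 and 216 in hypoxia and between 55.4 and 100.6 in normoxia. Fabp4, a fatty acid binding protein of adipocytes and the only other marker of the list that reached 100, had 763, 1416 and 1044 in the triCH1 lines in hypoxia, and 474, 1558 and 742 in normoxia. Fabp4 in flox1, flox2_1 and flox2_2 had 864, 1263 and 2048 in hypoxia, and 860, 1339 and 1266 in normoxia. Line triCH1flox2_1, with the least Pdk4, had the highest Pparg in both oxygen levels, whereas its Fabp4 was the highest in normoxia but lay below flox2_2 in hypoxia. Over the 4 of 5 adipocyte markers with a probe set, the summed signal was 861 to 2136 in triCH1 hypoxia, 654 to 2061 in triCH1 normoxia, 1111 to 2291 in control hypoxia and 926 to 1432 in control normoxia. The defining marker Adipoq averaged 20.9 and Cidec 12.1, and the part of these markers in the Pdk4 levels was not tested.

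Pdk2, a widely expressed isoform, lies on chromosome 11 at 95026258 to 95041371, and its single probe set averaged 103, just above the limit of 100. In hypoxia its signals were 135, 113 and 82.1 in the triCH1 lines, against 86.9, 86.9 and 133 in normoxia. In the control lines they were 138, 109 and 12.5 in hypoxia, against 116, 85.4 and 142 in normoxia. The hypoxia array of flox2_2 stood apart at 12.5. The mean response was -0.26 ± 0.35 (SE, limma adjusted p = 0.861), 0.09 ± 0.49 in triCH1 lines and -0.60 ± 0.49 in control lines. Without line flox2_2 the mean was 0.17 and the control response 0.25, so the sign rests on that line.

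**Figure D2:**
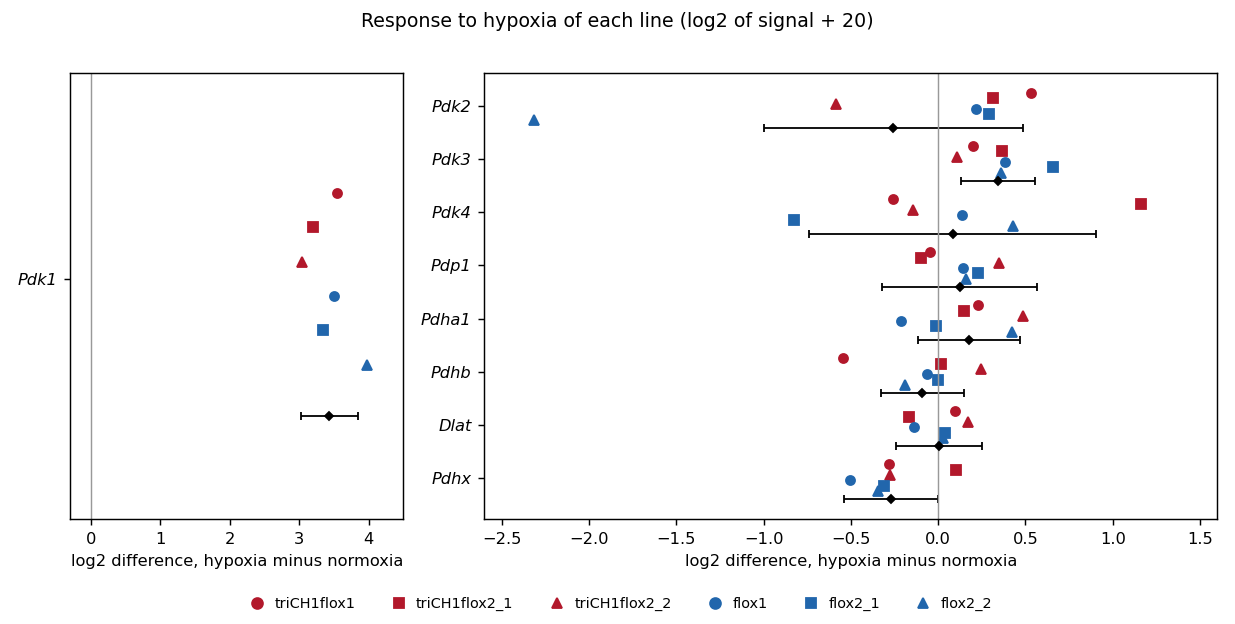
Log2 difference between hypoxia and normoxia, on the scale of log2(signal + 20), for each of the 6 lines (red triCH1, blue control) in the 9 tested members, each by its brightest probe set. Black diamonds are the mean response with its 95% interval from limma, and the left panel shows Pdk1 on its own axis. Pdk1 ranges from 3.04 to 3.98 and Pdk3 from 0.11 to 0.66, while each other member has lines on both sides of 0.

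The phosphatases work against the kinases. Pdp1, the calcium-sensitive isoform, lies on chromosome 4 at 11958183 to 11966450. In hypoxia its brighter probe set gave 196, 321 and 389 in the triCH1 lines, against 203, 346 and 301 in normoxia. In the control lines it gave 284, 390 and 479 in hypoxia, against 255, 329 and 426 in normoxia. The oxygen levels overlapped, and in both of them triCH1flox1 was the lowest triCH1 line and flox1 the lowest control line by this probe set. The mean response was 0.12 ± 0.21 (SE, limma adjusted p = 0.898), with 4 of 6 lines higher. The second Pdp1 probe set had a mean response of 0.24 ± 0.23 (SE, limma adjusted p = 0.785), and the 2 probe sets disagreed in sign in control lines, at 0.18 and -0.07. By the second, triCH1flox2_2 at 252.3 lay below triCH1flox1 at 256.7 in hypoxia, and flox2_2 at 220.9 below flox1 at 221.1 in normoxia.

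Pdp2, the insulin-sensitive isoform on chromosome 8 at 104591472 to 104599026, averaged a signal of 63.5 and was not tested. Its signals ran from 37.5 to 89.5 in triCH1 hypoxia, from 64.2 to 118 in triCH1 normoxia, from 41.4 to 60.7 in control hypoxia and from 38.7 to 72.5 in control normoxia. These values are near the median signal of an array and overlap.

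**Figure D3:**
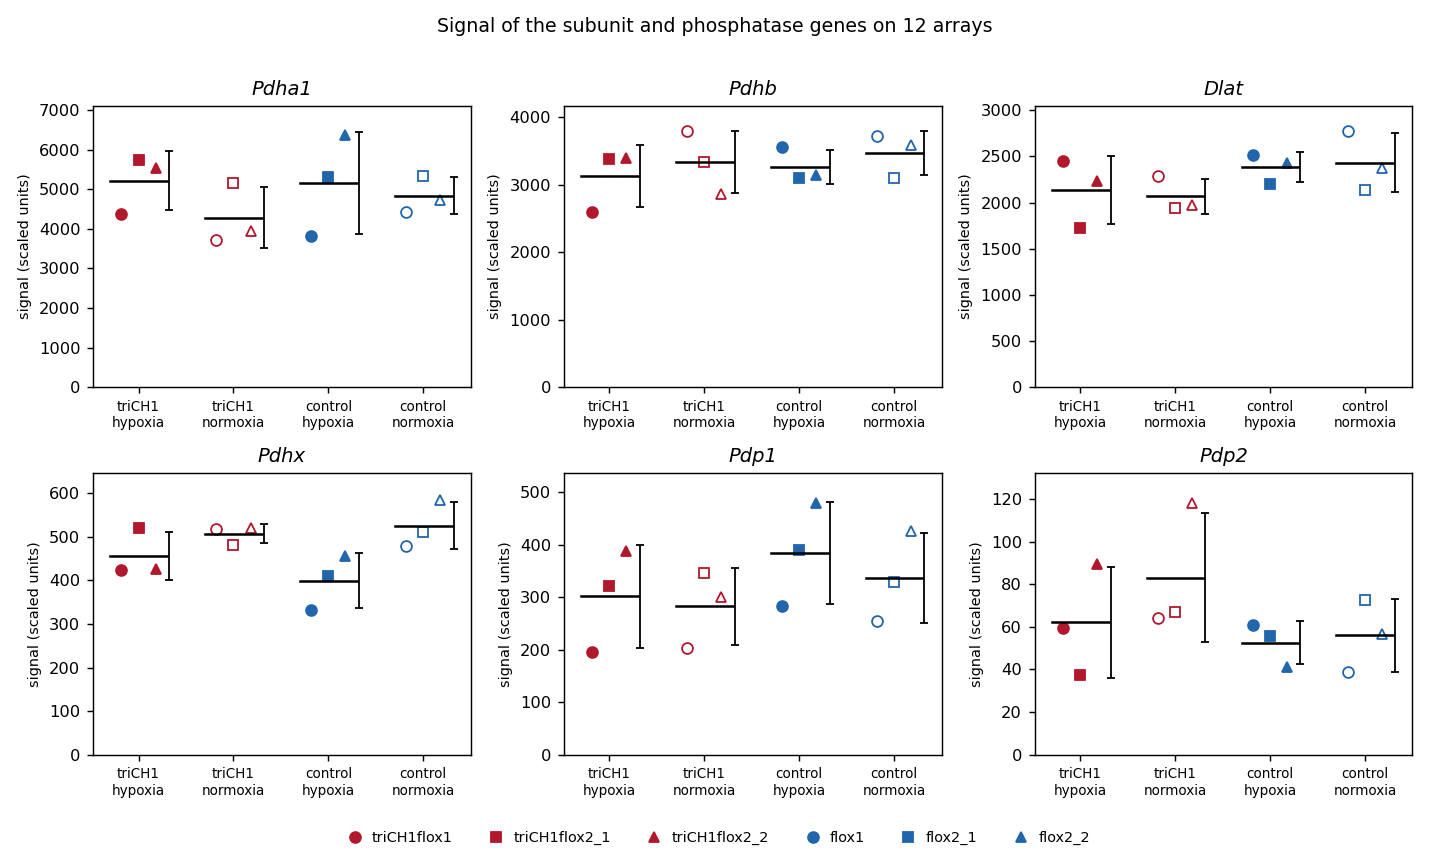
Signal (scaled units, axes from 0) of the brightest probe set of the 4 subunit genes and the 2 phosphatase genes on the 12 arrays, drawn as for the kinases, with group means as lines and SDs as bars. Hypoxia and normoxia arrays overlap in every gene except Pdhx in control lines, where 332 to 457 in hypoxia lies below 480 to 585 in normoxia.

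Among the subunits, Pdha1 encodes E1α, the protein that the kinases phosphorylate, and lies on the X chromosome at 160122219 to 160138430. In hypoxia its signals were 4366, 5733 and 5551 in the triCH1 lines, against 3725, 5167 and 3953 in normoxia. In the control lines they were 3819, 5302 and 6368 in hypoxia, against 4430, 5345 and 4737 in normoxia. The ranges overlapped in both line types. The mean response was 0.18 ± 0.14 (SE, 95% interval -0.11 to 0.47, limma adjusted p = 0.704), 0.29 ± 0.19 in triCH1 lines and 0.07 ± 0.19 in control lines. Without line flox2_2 the control response was -0.11.

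Pdhb encodes the E1β subunit and lies on chromosome 14 at 8165991 to 8173303. In the triCH1 lines its signals were 2597 to 3405 in hypoxia against 2870 to 3802 in normoxia, and in control lines 3100 to 3560 against 3106 to 3727. The mean response was -0.09 ± 0.11 (SE, 95% interval -0.33 to 0.15, limma adjusted p = 0.843), and 0.02 without line triCH1flox1. Its second probe set, with a mean signal of 129, gave -0.27 ± 0.22 (SE, limma adjusted p = 0.736).

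Dlat encodes the E2 acetyltransferase that forms the core of the complex, on chromosome 9 at 50634633 to 50659780. Its signals were 1727 to 2447 in triCH1 hypoxia against 1939 to 2287 in triCH1 normoxia, and 2201 to 2516 in control hypoxia against 2140 to 2772 in control normoxia. The mean response was 0.01 ± 0.12 (SE, 95% interval -0.24 to 0.25, limma adjusted p = 0.993), the closest to 0 of the members, and its sign turned when any of several arrays was left out. 2 further Dlat probe sets gave 0.06 ± 0.11 and 0.08 ± 0.21, and the last of these differed in sign between line types, at 0.38 in triCH1 lines and -0.22 in control lines.

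Pdhx encodes the protein that binds the E3 subunit into the core, on chromosome 2 at 103021055 to 103073513. In hypoxia its signals were 423, 519.6 and 426 in the triCH1 lines, against 519, 482 and 521 in normoxia. In the control lines they were 332, 409 and 457 in hypoxia, against 479.8, 512 and 585 in normoxia. Control lines had no overlap between oxygen levels, and 5 of 6 lines were lower in hypoxia, line triCH1flox2_1 being the exception. Over all probe sets, the share without such overlap was not counted. The mean response was -0.27 ± 0.13 (SE, 95% interval -0.54 to 0.00, limma adjusted p = 0.446), with -0.15 ± 0.18 in triCH1 lines and -0.39 ± 0.18 in control lines (limma adjusted p = 0.963 and 0.824). The difference in response was 0.23 ± 0.25 (SE, limma adjusted p = 1). None of these passed the test.

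By the brightest probe sets, the intervals of the mean response across the 4 subunits therefore lay between -0.54 and 0.47, where that of Pdk1 began at 3.03. Over all tested probe sets the subunit intervals lay between -0.75 and 0.53, where the lowest of Pdk1 began at 2.25. At an unadjusted p under 0.05, 2 of the 9 tested members passed for the mean response, Pdk1 and Pdk3, against 2138 of 18903 probe sets. In control lines 3 passed (Pdk1, Pdk3 and Pdhx) against 1130 probe sets, and in triCH1 lines 1 (Pdk1) against 1181. With the lines paired as a replicate block, 3 passed for the mean response (Pdk1, Pdk3 and Pdhx) against 3162 probe sets. Pdhx there had a limma unadjusted p of 0.04639.

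No member was called for a difference between line types. For the difference in response, limma called 0 of 18903 probe sets (0%), and 131 had an unadjusted p under 0.05, none of them of a member by its brightest probe set. In the triCH1 against control comparisons, 0.00529% of all probe sets were called in normoxia and 0.0741% in hypoxia, either direction. At an unadjusted p under 0.05, Pdk4 was the 1 member of 9 that passed in normoxia, against 1429 of 18903 probe sets. In hypoxia 0 members passed, against 1506 probe sets. Line types within an oxygen level cannot be paired by line, so the alternative fit took line as a random block. Its correlation of 0.30 was shared by all probe sets. By that fit Pdk4 passed in both oxygen levels (limma unadjusted p = 0.01282 and 0.04736). There 1446 probe sets passed in normoxia and 1587 in hypoxia. The member medians were -0.14 in normoxia and -0.07 in hypoxia, where all probe sets had medians of 0.02 and 0.03.

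Genes that act next to the complex were read from lists of the pathway. Of 14 genes for pyruvate entry and the partners of the complex, 11 were tested, and for the mean response 2 were called higher and 0 lower. Me2, the mitochondrial malic enzyme that makes pyruvate from malate, rose by 0.69 ± 0.11 (SE, limma adjusted p = 0.003434), and Pck2, the mitochondrial enzyme that makes phosphoenolpyruvate from oxaloacetate, rose by 0.50 ± 0.11 (SE, limma adjusted p = 0.0254). Both were higher in 6 of 6 lines, Me2 by 0.43 to 1.02 and Pck2 by 0.24 to 0.78. The median of the list was 0.05.

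Of 16 citrate cycle genes 15 were tested and 0 were called in either direction, or at an unadjusted p under 0.05, for the mean response. Their mean responses ran from -0.14 for Ogdh, the E1 subunit of the 2-oxoglutarate complex, to 0.16, with a median of -0.02. Dlst, the E2 subunit of the 2-oxoglutarate complex, had -0.14 ± 0.12 (SE, limma adjusted p = 0.744).

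Of 6 genes of related dehydrogenase complexes 4 were tested and 0 called. Dbt, the E2 subunit of the branched-chain complex, had -0.26 ± 0.26 and Bckdk, the kinase of that complex, 0.02 ± 0.13 (SE, limma adjusted p = 0.791 and 0.984). Of 12 genes for transcription factors known to act on Pdk genes, 9 were tested and 0 called. Nr3c1, the glucocorticoid receptor, had a mean response of 0.54 ± 0.21 and Foxo3 one of 0.25 ± 0.14 (SE, limma adjusted p = 0.334 and 0.573). Hif1a, whose protein is known to be set mainly by its stability, had a mean transcript response of 0.08 ± 0.14 (SE, limma adjusted p = 0.901), over line types that differed in sign. By line the Hif1a response was 0.61, 0.04 and 0.39 in triCH1flox1, triCH1flox2_1 and triCH1flox2_2, against -0.32, -0.57 and 0.33 in flox1, flox2_1 and flox2_2. The difference in the Hif1a response, triCH1 minus control, was 0.53 ± 0.28 (SE, limma adjusted p = 1, unadjusted p = 0.07628), with an unadjusted p of 0.03994 when lines were paired as a replicate block.

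**Figure D4:**
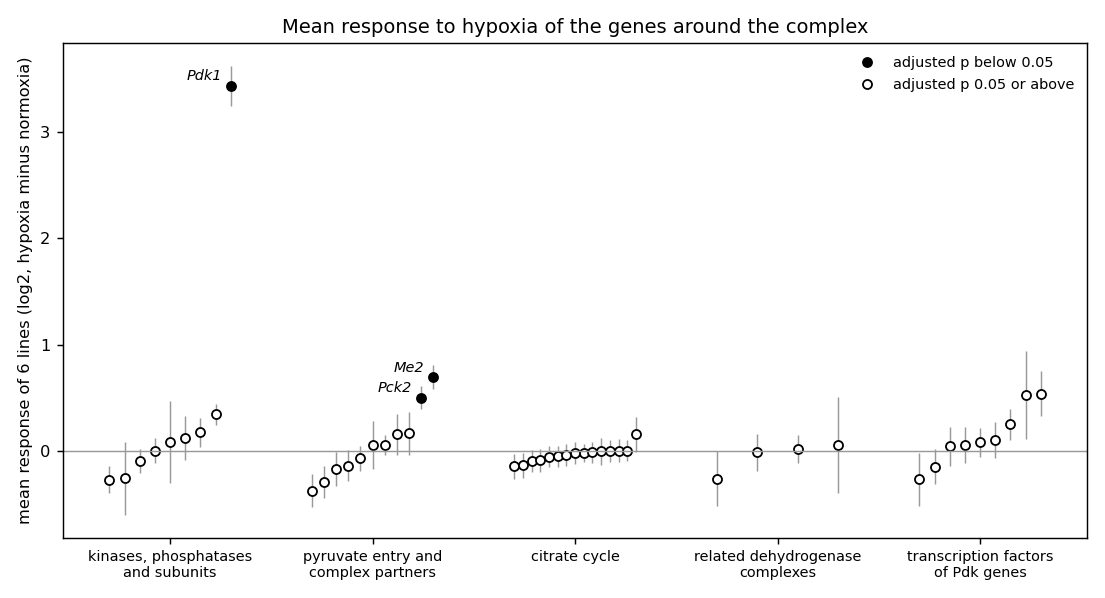
Mean response to hypoxia over the 6 lines (log2, hypoxia minus normoxia) of every tested gene in the family and in 4 neighbouring gene lists, with SE bars from limma, ordered by value within a list. Filled points have an adjusted p below 0.05: Pdk1 at 3.43, Me2 at 0.69 and Pck2 at 0.50, while the 15 citrate cycle genes lie between -0.14 and 0.16.

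The genes whose signals followed Pdk1 most closely were taken by Pearson correlation of log2 signals over the 12 arrays, among 10058 other genes by their brightest probe set. They were Sap30 (r = 0.981), a subunit of the Sin3 histone deacetylase complex, Bnip3 (r = 0.981), a mitochondrial protein of mitophagy, and Higd1a (r = 0.981), a small protein of the inner mitochondrial membrane. Ak4 (r = 0.975), an adenylate kinase of the mitochondrial matrix, and Pgm1 (r = 0.974), a phosphoglucomutase, came next. The 12 arrays form 2 clusters by oxygen, so r describes a shared split and carries no test. By line the log2 responses were 1.32 to 1.90 for Sap30, 4.08 to 4.84 for Bnip3, 1.31 to 1.72 for Higd1a, 2.24 to 3.12 for Ak4 and 1.15 to 1.97 for Pgm1. Line by line, the log2 response of Bnip3 was larger than that of Pdk1 in all 6 lines, and those of the other 4 genes were smaller.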

How the data were processed

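RNA from 6 fibroblast lines was hybridised to Affymetrix Mouse430_2 arrays, 1 per line and oxygen level. The deposited values are linear signal intensities from the Affymetrix Statistical algorithm, which the authors brought to a common target of 500 on each array, per the labels. The number of arrays limits the precision. Probe sets were named from the platform's annotation: 34945 of 45037 had 1 symbol, 932 several and 9160 none, and only those with 1 were named. The brightest probe set, by its mean over the arrays, stood for a gene. Probe sets with a mean signal of at least 100 were fitted on log2(signal + 20) with 1 mean per group in limma 3.58.1 (R 4.3.3, empirical Bayes with a variance trend), and p-values were adjusted by Benjamini-Hochberg over all 18903, with calls at 0.05. The fits were also run on simulated arrays drawn independently of each other, which cannot show how they behave when the arrays of a line correlate. Coordinates and promoter windows are RefSeq's (GRCm38.p6).

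Samples were grouped by their titles. The 2 arrays of a line carry RNA of the same cell line and are paired by it. Deviations from the group means correlated between the 2 arrays of a line at 0.47 in flox1, 0.28 in flox2_1, -0.02 in flox2_2, 0.54 in triCH1flox1, 0.58 in triCH1flox2_1 and 0.35 in triCH1flox2_2. Pairing entered as an alternative, beside other pseudocounts, filters, normalizations and omissions of single lines and arrays. For the responses to hypoxia, line was a fixed effect. For triCH1 against control within an oxygen level, which cannot be paired, line was a random block with a shared correlation of 0.30. Genes named from the pathway lists were those called in a comparison or, with none called in it, among the 2 with the smallest p, and beside them the 5 genes most correlated with Pdk1. The members and the lists were chosen with earlier results of these data known. Some genes of the lists are not reported here.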

Additional observations from a re-analysis of the deposited data

How the results depend on the processing

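The count of member genes called was the same under the 9 alternatives of scaling, filter, pseudocount, variance trend, probe set choice and replicate block in all 6 comparisons. Across those alternatives (8 for Pdk2) no log2 change reported for a member by its brightest probe set turned its sign or crossed the threshold. Other probe sets and list genes were recomputed only with the replicate block. The Pdk1 response was 2.94 to 3.36 in triCH1 lines and 3.23 to 3.72 in control lines, and its mean 3.09 to 3.54. With the lines paired as a replicate block the mean Pdk1 response was 3.43 ± 0.12 (SE), the responses 3.26 in triCH1 and 3.61 in control lines, the difference -0.34 ± 0.25, and no call of a member changed. Over all alternatives and omissions the limma adjusted p of the mean Pdk3 response lay between 0.0750 and 0.405.

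With single lines or arrays left out, the number of members called lower in triCH1 against control in normoxia ranged from 0 to 1: Pdk4 was called without line triCH1flox1, and its difference ranged from -2.10 to -0.72 (adjusted p 0.0289 to 1 over all settings). Signs turned for the uncalled changes below, among them the Pdk2 control response of -0.60. The triCH1 against control level of Pdk1 ranged from -0.0089 to 0.41 in normoxia and from -0.36 to 0.0550 in hypoxia. The Pdk2 response ranged from -0.13 to 0.42 in triCH1 lines and from -1.05 to 0.25 in control lines, with a mean of -0.48 to 0.17. That of Pdk4 ranged from -0.47 to 0.91 in triCH1 lines and from -0.35 to 0.28 in control lines, with a mean of -0.28 to 0.41. The control response of Pdha1 ranged from -0.11 to 0.27, and the mean responses of Pdhb from -0.18 to 0.0220 and of Dlat from -0.0470 to 0.0774. The cause was not tested. At the stricter limit of 200 the Pdk2 probe set was not tested. Pdp2 had too little signal for a test at the limit used, and the Pdk2 signal lay just above it.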
